A study of Homo sapiens with 6 samples.

Results

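The cytosolic and mitochondrial heat shock chaperones were described here through 10 human genes: HSP90AA1, HSP90AB1, HSPA8, HSPA9, HSPD1, HSPE1, HSPA4, DNAJA1, DNAJB1 and PPIA. They were chosen by name, and every human Ensembl transcript of them in the deposited matrices was taken, which gave 10 of the 12472 named human genes and 60 transcripts, of which 45 had counts in human cells. The study tested how PCR errors in unique molecular identifiers (UMIs, short random sequences that tag each captured RNA so that its PCR copies can be counted once) change the number of molecules counted in nanopore sequencing. Mixed cells of 2 myeloma cell lines, labelled JJN3 (human) and 5TGMG1 (mouse, written 5TGM1 in the study's text), were captured by Drop-seq on the Nadia system or by 10X Chromium, and the cDNA was amplified for the number of PCR cycles in the label. The 5 libraries with a matrix were Drop-seq with 1000 labelled cells and 25 cycles, Drop-seq with 500 cells and 30 or 35 cycles, and 10X with 2000 cells and 30 or 35 cycles. The remaining sample, also Drop-seq, had no matrix and was not used. The study describes portions of a first PCR product amplified to different cycle numbers for each platform. Its results and its methods describe the 10X cycle totals differently, and those of the methods match the labels, which are used here. The labels name no drug or genetic change. Each group was 1 library, so there was no replicate check and no test, and the intervals in parentheses are at 95% and take in counting error alone.

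Barcodes were ranked by total counts and kept up to the number of cells in the label, and those with at least 90% of counts on human transcripts were taken as human cells. There were 251, 166 and 165 of them in Drop-seq at 25, 30 and 35 cycles, with 115245, 67144 and 93499 human counts. The 10X libraries gave 1006 and 911 at 30 and 35 cycles, with 161961 and 199308 counts. Median counts per human cell were 243 to 352 in Drop-seq and 118 to 171 in 10X. No stored entry was below 1 in Drop-seq at 25 cycles, below 3 in Drop-seq at 30 and 35 cycles, or below 2 in 10X, so a missing entry is not a 0. The label was checked against cell type markers. In 10X, 10 of 12 plasma cell markers were found in human cells, summing to 6761 and 4395 CPM (counts-per-million scale, each gene's counts over all human counts in human cells), with IGLC2 and IGLC3 at 0 and T cell markers at 12.3 and 0 CPM. In Drop-seq, 11 of 12 plasma cell markers were at 0 in all 3 libraries, MZB1 being the exception at 74.5 to 130 CPM, while 6 to 10 of 12 T cell markers summed to 3063 to 3560 CPM. The Drop-seq human cells therefore went against the myeloma label. The study names Jurkat, a T cell line, in its cell culture section and in a figure legend for the 10X cells. Its results and methods name JJN3 for both platforms. Platform, capture chemistry, smallest stored value and the human cells themselves differed together and cannot be told apart in any comparison of Drop-seq with 10X. Human cell barcodes, stored with 10 bases, were shared by 722 cells of the 10X pair and by 145 cells of the 30- and 35-cycle Drop-seq pair, by 119 cells of all 3 Drop-seq libraries, and by none across platforms.

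Heat shock proteins are chaperones that keep other proteins folded, and many are abundant in unstressed cells. HSP70 proteins, helped by HSP40 partners, bind unfolded stretches of new or damaged proteins. HSP90 proteins act later on kinases, receptors and other clients, and HSP60 with its HSP10 lid forms a closed folding chamber in mitochondria. Genes of this class are induced by heat shock factor 1, which binds inverted repeats of the unit GAA, the heat shock element. Plasma cells, including myeloma cells, make large amounts of secreted protein and are known for high levels of folding factors.

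The results turn on the contrast between both cytosolic HSP90 genes, so the last 120 coding bases of each are shown first, the part nearest to the captured polyA end that both share. HSP90AA1 encodes the stress-inducible form and HSP90AB1 the constitutive form. The bases were read from HSP90AA1-201 (hg38 chr14:102081712-102082120, minus strand) and HSP90AB1-203 (chr6:44253369-44253598, plus strand), each range with an intron inside, and capitals mark the positions at which they differ.
HSP90AA1: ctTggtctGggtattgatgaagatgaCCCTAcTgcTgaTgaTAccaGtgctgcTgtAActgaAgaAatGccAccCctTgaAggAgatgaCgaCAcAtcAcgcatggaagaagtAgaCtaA
HSP90AB1: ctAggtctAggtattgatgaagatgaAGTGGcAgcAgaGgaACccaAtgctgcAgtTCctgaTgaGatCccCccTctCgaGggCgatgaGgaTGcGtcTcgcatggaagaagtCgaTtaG
They differed at 32 of 120 positions. Over the whole coding part (2199 and 2175 bases), 76.05% of 2175 aligned bases were identical, and the longest identical run was 23 bases. The genes are thus not near-identical copies.

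A heat shock element of 3 units, searched as GAANNTTCNNGAA or TTCNNGAANNTTC, was found in the RefSeq promoter windows (GRCh38.p14, 250 bases before to 50 after the start) of 5 of the 10 genes, DNAJA1, HSP90AA1, HSP90AB1, HSPA8 and HSPD1. It was in 5 of 16 windows of the 10 genes and in 0.49% of all 35116 windows. The forms are each other's reverse complement, so both strands were covered. The shorter element of 2 units, GAANNTTC or TTCNNGAA, which the longer one contains, was in 8 of the 16 windows and in 13.5% of all. One match is shown for 4 of the genes, read along the gene's own strand, because HSP90AB1 and HSP90AA1 both carry the element and yet differ in level; capitals mark the match.
HSP90AB1, chr6:44247823-44247851, plus strand: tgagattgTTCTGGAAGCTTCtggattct
HSP90AA1, chr14:102087112-102087140, minus strand: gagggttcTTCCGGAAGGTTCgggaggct
HSPA8, chr11:123062171-123062199, minus strand: cgggccccTTCTGGAAGGTTCtaagatag
HSPD1, chr2:197500063-197500090, minus strand: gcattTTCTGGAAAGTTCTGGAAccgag
The matches begin 112, 88, 55 and 245 bases before the start used by RefSeq, and in HSPD1 overlapping matches form a run of more than 3 units. The HSP90AB1 match lies before the start of HSP90AB1-202 (44247866). It lies after the starts of HSP90AB1-203, HSP90AB1-201 and HSP90AB1-204 (44247101, 44247087 and 44246166), inside an intron of them. The windows shown for HSPA8 and HSPD1 overlap annotated exons. The HSPD1 match also lies before the start of HSPE1-201 (chr2:197500379, plus strand), outside the window searched for HSPE1. A match is a description of these letters and not a binding site measured here.

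Over the 10 genes together, counts in human cells were 1593, 1010 and 1257 in Drop-seq at 25, 30 and 35 cycles. The 10X libraries had 915 at 30 cycles and 2407 at 35 cycles. As a share of all human counts, the chaperones held 1.38% (1.32 to 1.45), 1.5% (1.41 to 1.60) and 1.34% (1.27 to 1.42) in Drop-seq. In 10X they held 0.565% (0.529 to 0.603) at 30 cycles and 1.21% (1.16 to 1.26) at 35 cycles. The 3 Drop-seq shares lay close together, whereas the 10X share at 35 cycles was higher than that at 30 cycles, with intervals that did not overlap. With cells limited to the deepest barcodes, 50% of the labelled number, the 10X shares were 0.572% and 1.09%.

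A count here is not always a separate molecule. The gene total is the sum over its transcripts, and in cells with 2 or more transcripts of a member gene the highest 2 had the same count in 97.7%, 92.9% and 85.0% of cases in Drop-seq and in 99.2% and 98.6% in 10X. Taking only the highest transcript per gene and cell gave 511, 340 and 410 chaperone counts in Drop-seq and 306 and 723 in 10X, about a factor of 3 fewer. Intervals on the sums are too narrow for this reason, and intervals from the highest transcript are given beside the main ratios. How reads came to be counted for several transcripts was not tested.

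**Figure D1:**
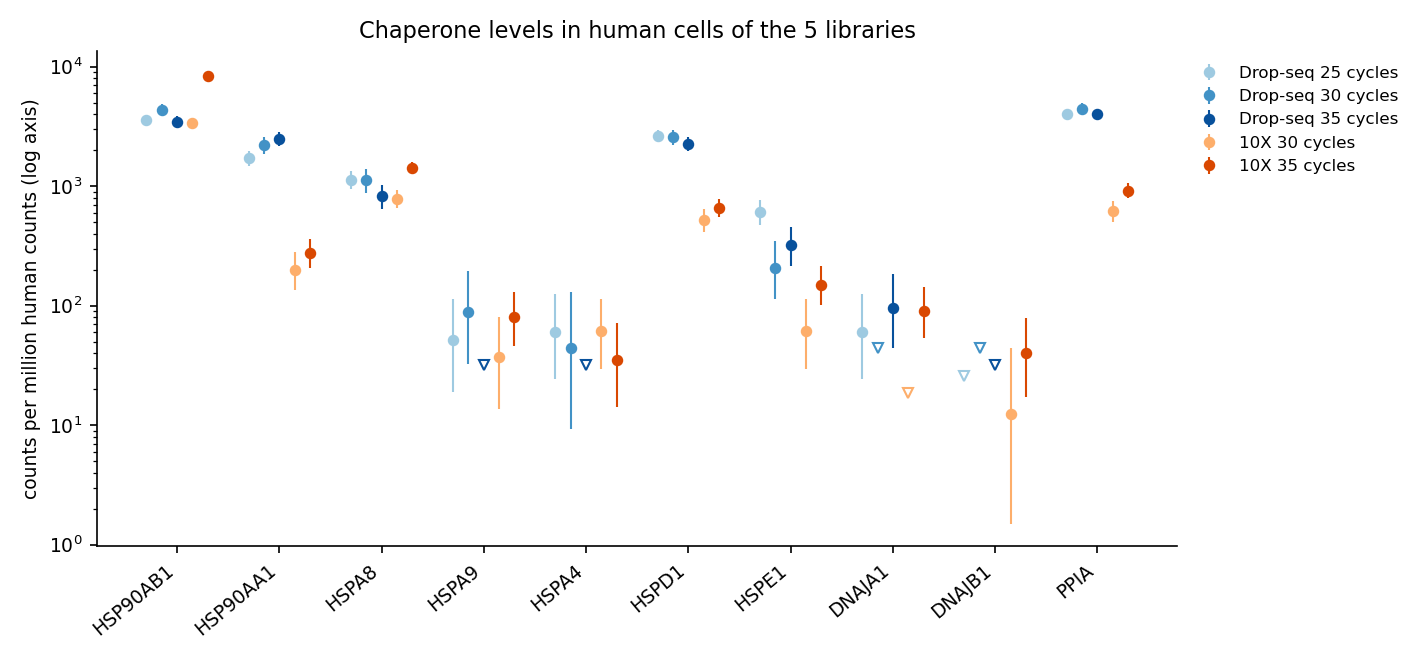
Level of each chaperone gene (CPM, log axis) in human cells of the 5 libraries, with 95% Poisson intervals; an open triangle marks a gene with no stored count, drawn at the level that 3 counts would give, which is not an upper limit. HSP90AB1 stands at 3359 CPM in 10X at 30 cycles and 8404 at 35 cycles, while HSP90AA1 is at 198 and 276 CPM there and at 1709 to 2481 CPM in Drop-seq.

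HSP90AB1 had 410, 294 and 322 counts in Drop-seq at 25, 30 and 35 cycles, while 10X held 544 at 30 cycles and 1675 at 35 cycles. As CPM this was 3558 (3222 to 3919), 4379 (3892 to 4909) and 3444 (3078 to 3841) in Drop-seq, and 3359 (3082 to 3653) and 8404 (8006 to 8816) in 10X. By the highest transcript, given without intervals, the levels were 2278, 2888 and 2060 CPM in Drop-seq and 1306 and 3290 CPM in 10X. The 30-cycle 10X library was then the lowest, and the lead of the 35-cycle one over Drop-seq at 30 cycles was smaller. By the sums, the 10X library with 35 cycles stood alone at the top. The intervals of the 25- and 35-cycle Drop-seq libraries and of the 30-cycle 10X library overlapped one another, and Drop-seq at 30 cycles overlapped that at 25. By the sums HSP90AB1 was therefore the chaperone with the highest level in both 10X libraries and the second, after PPIA, in all 3 Drop-seq libraries.

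HSP90AA1 showed a different pattern. It had 197, 149 and 232 counts in Drop-seq, or 1709 (1479 to 1966), 2219 (1877 to 2605) and 2481 (2172 to 2822) CPM. In 10X it had 32 and 55 counts, or 198 (135 to 279) and 276 (208 to 359) CPM. The platforms did not overlap for this gene, with every Drop-seq library above both 10X libraries.

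HSP90AB1 counts were thus 2.08 (1.75 to 2.48), 1.97 (1.61 to 2.42) and 1.39 (1.17 to 1.65) times those of HSP90AA1 in Drop-seq and 17.0 (11.9 to 25.1) and 30.5 (23.3 to 40.6) times in 10X. Counts of HSP90AB1 were summed over 4 transcripts and those of HSP90AA1 over 3. With the highest transcript per cell the ratios were 1.43, 1.46 and 0.949 in Drop-seq, against 9 and 19.5 in 10X, and divided by the length of the leading transcript (2555 and 3228 bases) they were 1.81, 1.85 and 1.20 against 11.4 and 24.6. The order of the platforms was the same by each measure, while HSP90AB1 exceeded HSP90AA1 in Drop-seq at 35 cycles by the sum, and by the highest transcript only once divided by length.

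HSPA8, the constitutive cytosolic HSP70, had 130, 75 and 77 counts in Drop-seq (1128, 1117 and 824 CPM) and 127 and 283 in 10X (784 and 1420 CPM). Its levels were the most alike across platforms of the 5 abundant genes, with the 10X library at 35 cycles highest and overlapping Drop-seq at 25 and 30 cycles (1259 to 1595 CPM against 942 to 1339 and 879 to 1400). HSPA4, an HSP110-type exchange factor for HSP70, had 7, 3 and 0 counts in Drop-seq and 10 and 7 in 10X, too few for an order. HSPA9, the mitochondrial HSP70, had 6, 6 and 0 counts in Drop-seq and 6 and 16 in 10X.

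HSPD1, the mitochondrial HSP60, had 302, 172 and 212 counts in Drop-seq (2620, 2562 and 2267 CPM) and 84 and 132 in 10X (519 and 662 CPM). The 3 Drop-seq intervals overlapped, as did those of 10X, and the lowest Drop-seq level was more than 3 times the highest 10X level. HSPE1, the HSP10 partner of HSPD1, had 70, 14 and 30 counts in Drop-seq (607, 209 and 321 CPM) and 10 and 30 in 10X (61.7 and 151 CPM). HSPD1 counts were 4.31, 12.3 and 7.07 times those of HSPE1 in Drop-seq and 8.4 and 4.4 times in 10X. These ratios had wide intervals, from 2.94 at the lowest bound to 22.9 at the highest, and did not separate the platforms. Per kilobase of the leading transcripts (2245 and 557 bases) and by the highest transcript, HSPD1 stood at 949, 948 and 732 CPM in Drop-seq and 162 and 219 in 10X. HSPE1 stood at 931, 491 and 590.2 CPM per kilobase in Drop-seq and 81.4 and 138 in 10X, from 5 to 28 counts.

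The HSP40 co-chaperones had few counts. DNAJA1 had 7, 0 and 9 counts in Drop-seq and 0 and 18 in 10X, and DNAJB1, which is known as strongly heat-inducible, had 0 in all 3 Drop-seq libraries and 2 and 8 in 10X. Values under the smallest stored value are missing from these sums, so no upper limit is given for a gene with no stored count.

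PPIA, cyclophilin A, a cytosolic prolyl isomerase that helps folding, had 464, 297 and 375 counts in Drop-seq and 100 and 183 in 10X. Its levels were 4026 (3668 to 4410), 4423 (3935 to 4956) and 4011 (3615 to 4438) CPM in Drop-seq and 617 (502 to 751) and 918 (790 to 1061) CPM in 10X. PPIA was the first of the 10 genes by count in every Drop-seq library and the third in both 10X libraries, but its intervals overlapped those of HSP90AB1 in all 3 Drop-seq libraries. Its order against HSP90AB1 and HSPD1 in Drop-seq also depended on the scale. Per kilobase of leading transcript and by the highest transcript, HSPD1, HSP90AB1 and PPIA came first at 25, 30 and 35 cycles in turn, while HSP90AB1 stayed first in both 10X libraries. The length used for PPIA was that of PPIA-204, 2237 bases, with 339 counts over the 5 libraries. PPIA-201, with 818 bases, had 336, so the place of PPIA per kilobase depended on which length was chosen. PPIAP2, a pseudogene copy of PPIA, had 19 and 4 counts in 10X, which are not in the totals of PPIA.

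**Figure D2:**
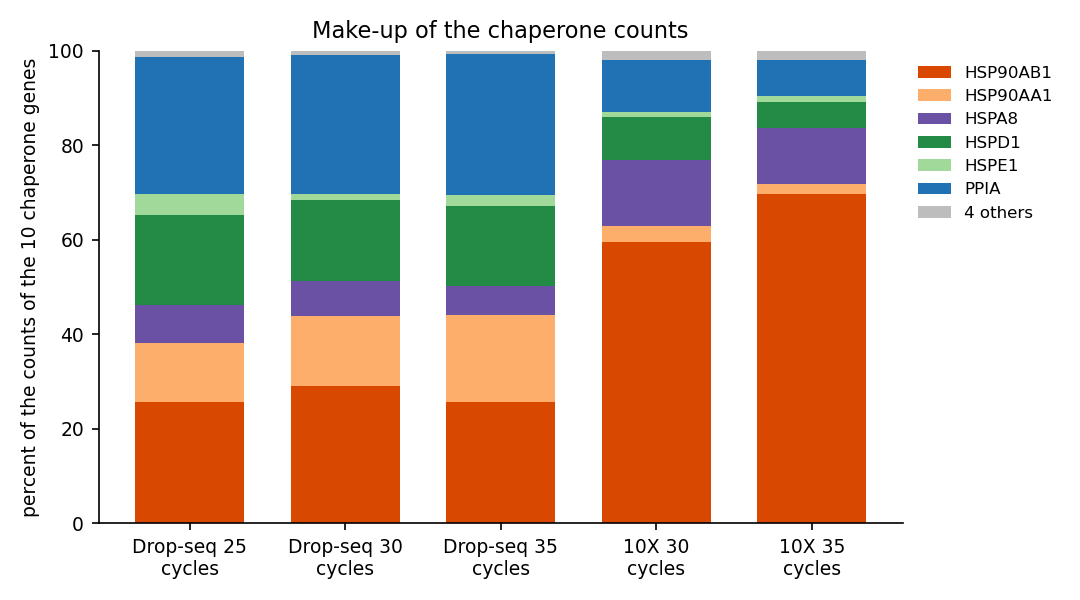
Percent of all counts of the 10 chaperone genes that each gene held, for the 5 libraries; the 4 others are HSPA9, HSPA4, DNAJA1 and DNAJB1. HSP90AB1 fills 59.5% and 69.6% of the 10X bars and 25.6% to 29.1% of the Drop-seq bars, where PPIA holds 29.1% to 29.8%.

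Within the family, HSP90AB1 held 59.5% (56.2 to 62.7) and 69.6% (67.7 to 71.4) of the chaperone counts in 10X at 30 and 35 cycles. In Drop-seq it held 25.7%, 29.1% and 25.6%, and PPIA 29.1%, 29.4% and 29.8%. HSPD1 held 19.0%, 17.0% and 16.9% in Drop-seq against 9.18% and 5.48% in 10X, and HSP90AA1 stood at 12.4%, 14.8% and 18.5% in Drop-seq against 3.50% and 2.29% in 10X. By these sums HSP90AB1 led by far in 10X, while PPIA and HSP90AB1 were close in Drop-seq. Within 10X the share of HSP90AB1 was higher at 35 cycles than at 30, with intervals that did not overlap. By the highest transcript, HSP90AB1 and PPIA had 123 and 113, 95 and 73, and 94 and 94 counts in Drop-seq. HSP90AA1 had 99 in Drop-seq at 35 cycles. In 10X, HSP90AB1 and PPIA had 144 and 43 at 30 cycles and 429 and 72 at 35 cycles. The lead of HSP90AB1 was thus larger in 10X, and which gene came first in Drop-seq depended on the measure.

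The 35-cycle library was compared with the 30-cycle library of its own platform to ask how added PCR cycles change counted molecules, using log2 ratios of CPM for genes with at least 100 counts over both libraries and a call at 2-fold. In 10X, 4 chaperone genes reached 100 counts and 1 was called higher, HSP90AB1, with 0 called lower. Over all 421 human genes tested, 10.5% were called higher and 20.2% lower, 30.6% in either direction. HSP90AB1 stood at a log2 ratio of 1.32 (1.18 to 1.47), or 1.33 (1.06 to 1.62) by the highest transcript. HSPA8 followed at 0.85 (0.55 to 1.17), PPIA at 0.57 (0.21 to 0.94) and HSPD1 at 0.35 (-0.05 to 0.77), the last with an interval that held 0. By the highest transcript the interval of PPIA held 0 too, at 0.50 (-0.06 to 1.08). All 4 ratios were above 0 with a median of 0.71, where the median of all tested genes was -0.19 with quartiles of -0.88 and 0.51. With cells limited to the deepest barcodes, 50% of the labelled number, HSPD1 stood at -0.16, on the other side of 0. The sizes and the order also depended on the smallest value kept. With entries below 3 left out, HSP90AB1 stood at 2.67 and HSPA8 at 0.24, the 2 genes that still reached 100 counts. HSPD1 and PPIA, with fewer counts, then stood at 1.02 and 0.28. HSP90AA1, at 32 and 55 counts, was below the minimum.

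The sum of all 10 genes was higher by 1.10 on the log2 scale (0.99 to 1.21) in 10X at 35 cycles, and by 1.0 (0.80 to 1.20) by the highest transcript. Without HSP90AB1 the sum stood at 0.68 (0.50 to 0.87), so that 1 gene carried much of the difference. The folding genes of the endoplasmic reticulum, 14 genes that act on secreted proteins, moved less as a sum, at 0.24 (0.10 to 0.37), with 791 and 1147 counts, or 0.05 (-0.14 to 0.23) by the highest transcript. HSP90B1, the HSP90 of that compartment, made up 283 and 668 of those counts and stood at 0.94 (0.74 to 1.15), and it is named here after its value was seen.

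In Drop-seq, 5 chaperone genes reached 100 counts and 0 were called, against 0.935% of 321 human genes called in each direction, 1.87% in all. HSP90AB1 stood at -0.35 (-0.58 to -0.11), HSPA8 at -0.44 (-0.92 to 0.04), HSPD1 at -0.18 (-0.47 to 0.12), PPIA at -0.14 (-0.36 to 0.08) and HSP90AA1 at 0.16 (-0.14 to 0.47). HSP90AB1 was the one gene of the 5 whose interval did not hold 0, and it also stayed below 0 by the highest transcript, at -0.49 (-0.91 to -0.06). The sum was -0.16 (-0.28 to -0.04), or -0.20 (-0.41 to 0.01) by the highest transcript, beside a median of -0.06 over all tested genes. With cells limited to the deepest barcodes, 50% of the labelled number, the sum stood at 0.07 and HSP90AB1 at -0.18. HSP90AB1 thus lay above 0 in 10X and below 0 in Drop-seq, with both intervals apart from 0, and that difference between platforms was not tested.

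**Figure D3:**
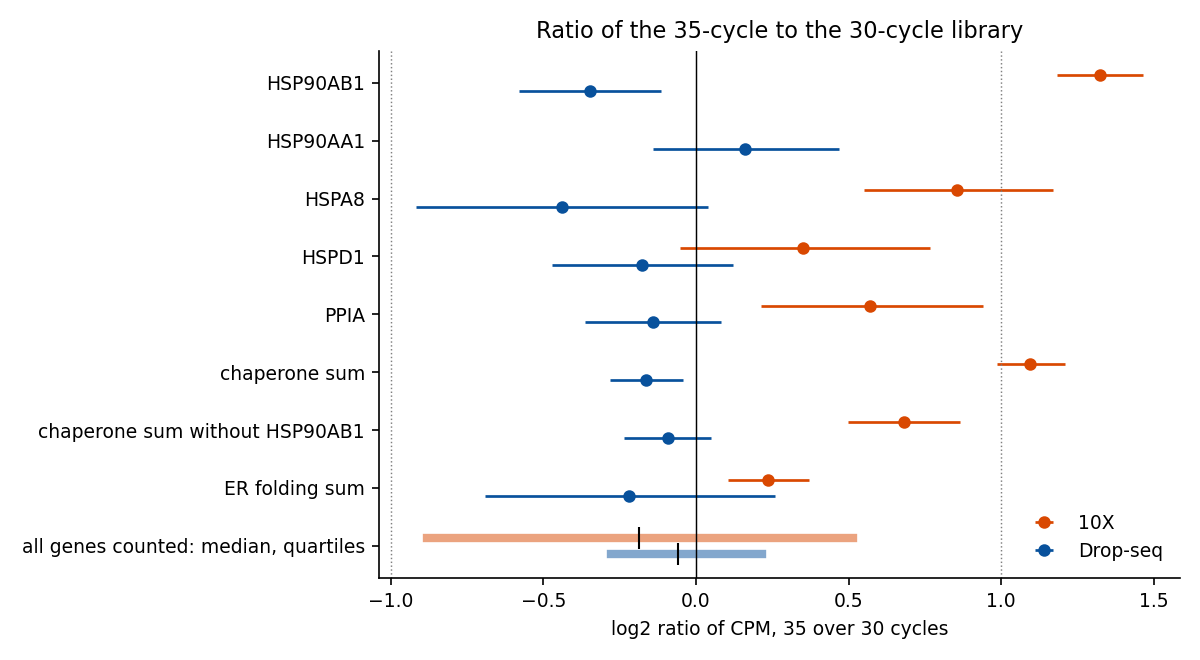
Log2 ratio of CPM of the 35-cycle over the 30-cycle library in 10X (orange) and Drop-seq (blue), with exact 95% intervals for counting error; bars at the bottom give the quartiles and the median of all human genes with at least 100 counts, and dotted lines mark 2-fold. HSP90AB1 lies at 1.32 in 10X and -0.35 in Drop-seq; HSP90AA1 was below 100 counts in 10X and is drawn for Drop-seq alone.

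Within Drop-seq the 30-cycle library was also set beside the 25-cycle library, which had more labelled cells and another nanopore library kit, with entries below 3 left out of both. The sum of the chaperones stood at 0.00 (-0.12 to 0.13), and 0 of 5 genes were called, against 5.94% of 286 human genes called higher and 13.3% lower, 19.2% in either direction. Single genes ranged from -0.26 for HSPD1 to 0.16 for HSP90AB1, and each of the 5 intervals held 0. With a purity of 95%, PPIA moved to 1.70 and HSPA8 to 1.3, so these values depended on the purity limit.

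Between platforms, entries below 3 were left out of both libraries because Drop-seq stored none, which removed most 10X entries of these genes. At 30 cycles the kept counts were 1010 in Drop-seq and 131 in 10X, a log2 ratio of 2.46 (2.20 to 2.74) for the sum. Of 5 genes tested, 4 passed 2-fold higher in Drop-seq, one of them HSP90AA1, whose 10X side was emptied by leaving out those entries, against 60.1% of 153 human genes called higher and 30.1% lower, 90.2% in either direction. PPIA stood at 3.52, HSPD1 at 3.30, HSP90AB1 at 1.75 and HSPA8 at 0.69. HSP90AA1 kept 149 counts in Drop-seq and 0 in 10X, where 32 were stored, so it passed the minimum through Drop-seq alone and its difference is a description. As stored it stood at 2219 and 198 CPM. With entries as stored, HSP90AB1 stood at 0.38, under 2-fold, and the sum at 1.41.

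At 35 cycles the platforms differed less as a sum, at 0.36 (0.24 to 0.49), with HSP90AB1 on the other side from 3 of the genes. Of the 5 genes, 3 were called higher in Drop-seq (HSP90AA1 at 3.76, PPIA at 3.10 and HSPD1 at 2.11) and 1 lower (HSP90AB1 at -1.27, -1.46 to -1.07), while HSPA8 stood at 0.01. Among 209 human genes, 64.6% were called higher and 25.8% lower, 90.4% in either direction. By the highest transcript HSP90AB1 stood at -0.52 (-0.90 to -0.16), which was under 2-fold. With median-of-ratios scaling in place of totals, the sum turned to -1.06 and HSPA8 to -1.42, and HSPD1 stood at 0.68, under 2-fold. HSP90AB1 therefore changed sides between the cycle numbers, from higher in Drop-seq at 30 cycles to lower at 35 cycles, and HSP90AA1, HSPD1 and PPIA did not.

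Transcripts of the same gene were hard to tell apart in these matrices. For HSP90AB1, HSP90AB1-203 and HSP90AB1-201, which share 2555 bases of exon, had 144 counts each in 10X at 30 cycles and 429 each at 35 cycles. In Drop-seq they had 121 and 123, 95 and 95, and 92 and 89 counts. HSP90AB1-204 and HSP90AB1-202, which share 2460 bases with HSP90AB1-203, had 131 and 125 counts and 411 and 406 counts in 10X. All 178 human cells with HSP90AB1 in 10X at 35 cycles had equal counts for the highest 2 transcripts, so the 25.6% share of HSP90AB1-203 says little about which isoform was present.

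**Figure D4:**
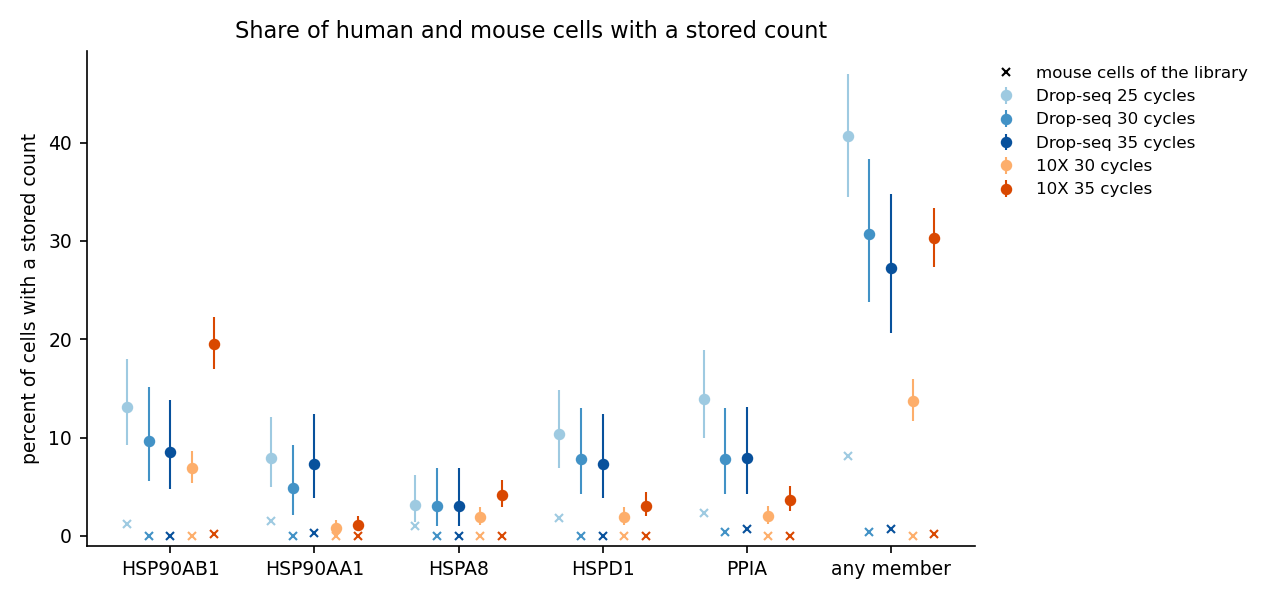
Percent of human cells (circles, exact 95% intervals) and of mouse cells (crosses) with a stored count of 5 chaperone genes or of any of the 10, in the 5 libraries. HSP90AB1 was stored in 6.86% of human cells in 10X at 30 cycles and in 19.5% at 35 cycles, and mouse cells lie near 0 except in the 25-cycle library.

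Classes of transcripts differed as well. Transcripts annotated with a retained intron held 18.2% (14 to 23.0), 9.30% (5.41 to 14.7) and 16.0% (11.4 to 21.7) of HSPD1 counts in Drop-seq and 4.76% (1.31 to 11.7) and 3.03% (0.832 to 7.58) in 10X. The longest of them with counts, HSPD1-211 and HSPD1-210, contain nearly the whole leading transcript HSPD1-202, sharing 2243 and 2220 of its bases, and had 39 and 11 counts in Drop-seq at 25 cycles and 2 and 0 in 10X at 30 cycles. For PPIA, transcripts annotated for nonsense-mediated decay held 17.5% (14.1 to 21.2), 18.5% (14.3 to 23.4) and 17.6% (13.9 to 21.8) in Drop-seq. In 10X they held 13.0% (7.11 to 21.2) and 10.4% (6.37 to 15.7), with intervals that overlapped those of Drop-seq. The retained intron shares of HSPE1 lay the other way at 35 cycles, with 0 of 30 counts in Drop-seq and 12 of 30 in 10X, while at 30 cycles they were 4 of 14 and 0 of 10, and in Drop-seq at 25 cycles 16 of 70. Over all named human genes, retained intron transcripts held 6.4% to 6.81% in the Drop-seq libraries and 7.2% to 9.19% in the 10X libraries, and decay transcripts 7.96% to 8.25% and 4.83% to 5.41%. PPIA-202 was all of the decay class of PPIA in Drop-seq and 11 of 13 and 13 of 19 counts in 10X. Coding transcripts held 87.9%, 90.1% and 88.6% of all chaperone counts in Drop-seq and 96.2% and 96.8% in 10X, where all named human genes had 79.5% to 80.1% and 75.1% to 76.2%. All 4 annotated transcripts of HSP90AB1 are coding. That gene held 59.5% and 69.6% of the chaperone counts in 10X, against 25.7%, 29.1% and 25.6% in Drop-seq. The coding shares of the family therefore take in this difference in make-up. HSP90AA1-204, annotated for nonsense-mediated decay, had 13.2%, 12.8% and 15.1% of its gene in Drop-seq and 18.8% and 23.6% (6 of 32 and 13 of 55 counts) in 10X. HSPA8 counts were spread over HSPA8-224 (24.6% to 30.7% of the gene), HSPA8-218 (24% to 33.1%) and HSPA8-201 (19.2% to 29.3%), and the order of the 3 differed between libraries.

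The counts were spread over cells in different ways on the 2 platforms. HSP90AB1 was stored in 69 of 1006 human cells in 10X at 30 cycles, 6.86% (5.38 to 8.60), and in 178 of 911 at 35 cycles, 19.5% (17.0 to 22.3). Most of these cells held the smallest stored value of 2, namely 92.8% and 69.7%, and the highest values were 4 and 6. In Drop-seq it was stored in 33 of 251, 16 of 166 and 14 of 165 cells (13.1%, 9.64% and 8.48%), with highest values of 19, 11 and 12. By the highest transcript, 5 cells held 51.2%, 48.4% and 48.9% of the HSP90AB1 counts in Drop-seq, against 11.1% and 6.06% in 10X. Fewer Drop-seq cells had an entry, so 5 cells were a larger part of them. Counts of all genes were also more concentrated there. The 5 deepest human cells held 15.5% to 17.7% of all counts per Drop-seq library, but only 3.02% for 10X at 30 cycles and 2.85% at 35 cycles. Whether HSP90AB1 was more concentrated than other genes was not tested. In cells thinned to 200 counts the 10X shares were 9.85% of 208 cells and 19.2% of 326 with at least that depth at 30 and 35 cycles. The Drop-seq shares were then 9.21% of 173 cells, 7.97% of 110 and 6.81% of 146. At this depth 10X at 30 cycles was no longer below Drop-seq.

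The background was read from mouse cells, which carry no human genes. In 10X, any of the 10 genes was stored in 0 of 806 mouse cells at 30 cycles, which allows a stored entry in up to 0.372% of cells, and in 2 of 881 at 35 cycles. In Drop-seq it was 48 of 590 (8.14%), 1 of 291 and 2 of 309, with a higher background at 25 cycles where values of 1 were stored. Human cells with any of the 10 genes were 40.6%, 30.7% and 27.3% in Drop-seq, against 13.7% and 30.3% in 10X, with median depths of 271, 243, 352, 118 and 171 counts. In human cells thinned to 200 counts they were 34.0%, 27.8% and 23.9% in Drop-seq, against 20.9% and 33.1% in 10X. HSPA9, at 3 of 251 human and 4 of 590 mouse cells at 25 cycles, was not above its background by the intervals, 0.247% to 3.45% and 0.185% to 1.73%. The intervals of human and mouse cells also overlapped there for HSPA8, at 1.39% to 6.18% and 0.374% to 2.20%. The same held for HSPA4 and DNAJA1.

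Most cells stored at most 1 of the 10 genes. In 10X at 35 cycles 635 of 911 human cells stored none, 245 stored 1, 28 stored 2 and 3 stored 3, and at 30 cycles 868 of 1006 stored none and 7 stored 2. In Drop-seq the cells with 3 genes at 35 cycles numbered 4 and had a median depth of 3833.5 counts against 320.5 in cells with none. The share of counts on HSP90AB1 also varied between cells of different depth, given here without intervals. In 10X at 35 cycles, HSP90AB1 took 1.22% of counts in the 304 human cells of lowest depth and 0.584% in the 303 of highest depth, and at 30 cycles 0.401% and 0.280%, with 1.08% and 0.417% at 35 and 30 cycles in the cells of middle depth. In Drop-seq the values were 0.345%, 0.158% and 0.415% from the lowest to the highest depth at 25 cycles, 0.932%, 0.115% and 0.447% at 30 cycles, and 0.691%, 0% and 0.387% at 35 cycles. Those at 30 and 35 cycles rest on 16 and 14 cells with a stored entry. For the 10 genes together in 10X at 30 cycles, the intervals were 0.586% to 0.779%, 0.514% to 0.666% and 0.475% to 0.569%. Neighbouring ones overlapped.

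**Figure D5:**
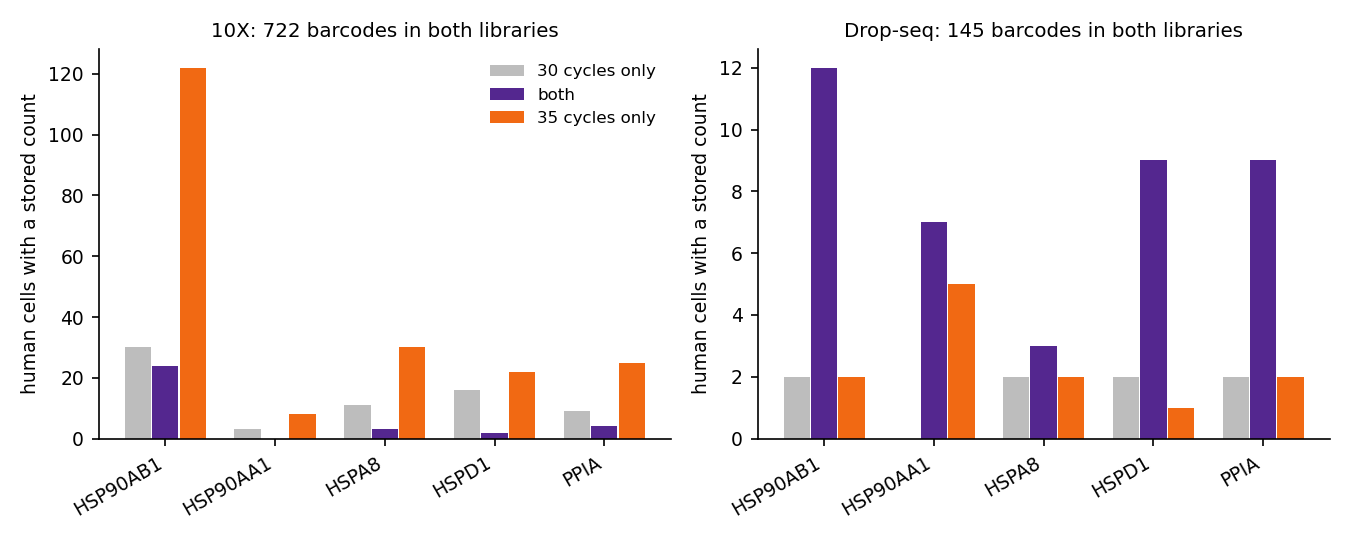
Number of human cells, among barcodes that were human cells in both libraries of a pair, that stored a gene at 30 cycles only, in both, or at 35 cycles only, for 10X (left) and Drop-seq (right). In 10X, HSP90AB1 was stored at both cycle numbers in 24 cells and at 35 cycles only in most of the 146 cells that had it there, while in Drop-seq 12 of 14 cells had it in both.

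The same barcodes could be followed between cycle numbers. Of 722 barcodes shared in 10X, 54 stored HSP90AB1 at 30 cycles and 146 at 35 cycles, and 24 did so at both, which was 44.4% of the first and 16.4% of the second. Of 145 shared in Drop-seq, 14 stored it at 30 cycles and 14 at 35, and 12 at both, 85.7% of each. In Drop-seq HSPD1 was found again in 9 of 11 cells and PPIA in 9 of 11, and in 10X in 2 of 18 and 4 of 13. Any of the 10 genes was found again in 35 of 43 Drop-seq cells and 51 of 105 10X cells, the latter with entries mostly at the smallest stored value, and this difference was not tested. The value in the second library exceeded that in the first for HSP90AB1 in 128 of the shared 10X cells and was lower in 33. Most of these had no entry on one side, which is not a 0. Of the 128, 85 cells went from no entry to 2 and 32 to 3, and 30 of the 33 went from 2 to no entry. The values were not scaled for depth, with median counts per human cell of 118 and 171 at 30 and 35 cycles.

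Other folding genes came from lists drawn up with earlier results known. Over all human genes tested, 30.6% of 421 were called in either direction in the 10X pair and 1.87% of 321 in the Drop-seq pair. In the 10X pair 6 of 14 genes of endoplasmic reticulum folding reached 100 counts and 1 was called, DNAJC3, a co-chaperone of that compartment, at -1.29. The other tested genes of that list were HSP90B1 at 0.94, CALR at 0.04, P4HB at -0.19, PDIA6 at -0.44 and CANX at -0.59. Of 12 HSP90 co-chaperones 1 was tested and called lower, PTGES3 at -1.08 (122 and 71 counts), which is named here after its value was seen. Of 20 further HSP70 and HSP40 genes and cofactors 1 was tested and called, DNAJC8 at 2.47 (16 and 112 counts), which is known for its part in splicing. DNAJC8 reached 100 counts through the 35-cycle library alone and PTGES3 through the 30-cycle library alone. Of 14 TRiC and prefoldin genes, which fold actin and tubulin, 2 were tested and 1 called, CCT2 at 1.74 (20 and 84 counts). None of 12 mitochondrial proteostasis genes, 10 small heat shock and stress genes or 12 cyclophilins and FKBPs reached 100 counts. The medians of the lists with more than 1 tested gene were -0.31 for endoplasmic reticulum folding and 0.76 for TRiC and prefoldin, beside -0.19 over all genes. In the Drop-seq pair 2 genes were tested in these lists, both of TRiC and prefoldin, with a median of 0.38, and 0 were called.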

How the data were processed

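Single-cell nanopore libraries of mixed human and mouse cells were analysed from the deposited transcript-by-barcode matrices. The authors deposited UMI counts per transcript and cell, and their methods name Guppy and minimap2, with UMI-tools for monomer UMIs and a script of their own for homotrimer UMIs; per the labels the build was hg38. Which counting step was behind each Drop-seq matrix, and why the smallest stored values differ, is not given in the sources used here. Transcripts were matched without version to GENCODE release 44 (42740 of 46484 human identifiers, 91.9%). Gene totals were sums over transcripts in human cells (top barcodes up to the labelled number, at least 90% human counts), divided by all human counts (CPM). Doublets were not called, and the purity limit removes barcodes that mix species only. Ratios used genes with at least 100 counts over both libraries, a pseudocount of 0.5 counts and a call at 2-fold, with entries below 3 left out across platforms and against 25 cycles. Exact Clopper-Pearson, Poisson and conditional binomial 95% intervals (scipy 1.17.1, Python 3.11.15, pandas 2.3.3, numpy 2.4.6) cover counting error only. There was 1 library per group and no test. A share of 0 was given a limit of 3 cells with a stored entry, and levels of 0 were given none. The ratio code was tested on simulated data. Genes outside the 10 were named by rule, at most 3, from the lists of folding genes called in the 10X cycle comparison (DNAJC8, CCT2 and DNAJC3); PTGES3, HSP90B1 and the other tested endoplasmic reticulum genes were named after their values were seen. Members, lists and rules were chosen with earlier results of these data known. Alternatives covered cell sets, purity, scaling, minimum counts, pseudocount and stored minimum. Read totals were not used. The comparison of the chaperone pattern with that of other genes is not reported here.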

Additional observations from a re-analysis of the deposited data

Results flagged for a closer look

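The change from 30 to 35 cycles in HSP90AB1 had opposite signs on the platforms, with a log2 ratio of 1.32 in 10X and -0.35 in Drop-seq. The sum of the 10 chaperone genes also had opposite signs, at 1.10 in 10X and -0.16 in Drop-seq. These differences between platforms were not tested, since each rests on 1 library per platform and cycle number, and the human cells of the platforms differed in their cell type markers.

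PPIAP2, a processed pseudogene of PPIA and so outside the 10 genes, had 19 counts in human cells of 10X at 30 cycles and 4 at 35 cycles. PPIA itself had 100 and 183 counts there, and whether reads of one were counted for the other was not tested.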

How the results depend on the processing

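No pairing of replicate libraries was possible because each group was 1 library. Leaving out a replicate was not possible for the same reason. Barcodes could be matched within a platform. With only barcodes that were human cells at both 30 and 35 cycles, the sum stood at 1.11 in 10X and -0.06 in Drop-seq. HSP90AB1 stood at 1.28 and -0.25 in these cells. Of 54 alternative values of the chaperone ratios, 35 lay within the counting interval of the reported value and 19 did not, and no ratio of at least 2-fold changed sign. With cells limited to the deepest barcodes, 50% of the labelled number, the sum stood at 0.92 in the 10X cycle comparison, 0.070 in that of Drop-seq, 2.0 and 0.62 between platforms at 30 and 35 cycles, and -0.19 for Drop-seq 30 over 25 cycles. Median-of-ratios scaling gave 1.28 in the 10X comparison with 2 genes called (HSPA8 added), 1.88 and -1.06 between platforms, and 0.19 for 30 over 25 cycles; it moved all log2 ratios by 0.19, -0.58 and -1.43, and 0.19. Leaving out entries below 3 gave 1.93 in 10X, and entries as stored gave 1.41 and 0.15 between platforms. The highest transcript per cell gave 3.01 and 1.07 between platforms. Without HSP90AB1, chosen after seeing the data, the sum was 0.68 in 10X and 2.88 and 2.21 between platforms. For 30 over 25 cycles, all barcodes with 100 counts gave -0.20 and a purity of 95% gave 0.38. With no minimum, 5 genes were called in 10X and 3 in Drop-seq, the added ones having few counts. The share of all human genes called is not given for this setting or for median-of-ratios scaling. As a percent of human counts, the highest transcript gave 0.947, 1.03 and 0.899 in Drop-seq. It gave 0.277 and 0.555 in 10X. Entries from 3 gave 1.5 in Drop-seq at 25 cycles and 0.273 and 1.04 in 10X. The smaller cell set gave 1.32 in Drop-seq at 30 cycles and 1.09 in 10X at 35. At 25 cycles, all barcodes with 100 counts gave 1.56, a purity of 95% gave 1.15, and leaving out the 5 deepest cells, chosen after seeing the data, gave 1.31. The causes were not tested. HSPA9, HSPA4, DNAJA1 and DNAJB1 had at most 18 counts in any library, below the minimum for a ratio.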
